A study of Mus musculus with 6 samples.

Results

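Chemokines, interleukins, Toll-like receptors and genes of the tumor necrosis factor (TNF) superfamily were compared in the livers of mice treated with 9/13-HODEs and of Ctrl mice. The members were taken by gene symbol, as Ccl, Ccr, Cxcl, Cxcr, Il or Tlr followed by a number, or any symbol beginning with Tnf. Of 192 gene models with such a symbol, 138 had at least 1 read count in at least 1 of the 6 libraries, out of 22481 such genes in the whole table. The name rule also took in genes that are not signalling molecules, such as Il4i1, which encodes an amino acid oxidase, the pseudogenes Ccl19-ps1 and Ccl19-ps3, and Tnfsf13os, a transcript opposite to Tnfsf13. The other 54 symbols had no count in any library, and Il6, Il10, Il2, Il17a, Ccl11, Ccl20, Cxcl5 and Tlr9 were among them.

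9-HODE and 13-HODE are hydroxylated products of linoleic acid. Male C57BL/6 mice, 8 weeks old at the start, received both in equal amounts at a combined 0.5 μg per g body weight, as 1 intraperitoneal injection a day for 9 days (9/13-HODEs, n = 3), or the polyethylene glycol and water solvent alone (Ctrl, n = 3). Each library was made from the poly(A) RNA of whole liver of 1 mouse, so the values are a mixture of hepatocytes and every other liver cell. The comparison addressed whether the treatment changed the RNA of inflammatory signals and their receptors.

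Chemokines are small secreted proteins that draw leukocytes along a gradient through receptors on those cells. Interleukins and TNF ligands act through receptor chains whose signals run through JAK-STAT, NF-kB or death domain adaptors. Toll-like receptors bind microbial products and set off NF-kB and interferon regulatory factors. In liver, Kupffer cells, endothelial cells, hepatocytes and resident lymphocytes all make some of these proteins, and hepatocytes carry many of the cytokine receptors.

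Library totals lay between 70300597 and 78615288 counts. The 138 members took 57207, 66261 and 63717 counts in 9/13-HODEs livers, against 59174, 50400 and 71906 in Ctrl livers, which is 0.0798%, 0.0864% and 0.0810% of the total in 9/13-HODEs livers against 0.0806%, 0.0717% and 0.0971% in Ctrl livers. Between 109 and 117 members had a count in each 9/13-HODEs library, against 100 to 112 in each Ctrl library. Small counts piled up at multiples of 4: in each library 671 to 779 genes had exactly 4 counts, whereas 197 to 230 had 3 and 100 to 145 had 5. A count of 4 is therefore not known to stand for 4 independent molecules.

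Levels are given in FPKM, fragments scaled to transcript length and library depth. Differences were tested by the quasi-likelihood method of edgeR, fitted to the counts of the 14741 genes with a mean of at least 0.1 FPKM, and p-values were adjusted by Benjamini-Hochberg over all of them. Fold changes are 9/13-HODEs over Ctrl on the log2 scale, with their standard error (SE). Of the 138 members, 77 passed the 0.1 FPKM limit and were tested, and 61 did not.

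By edgeR, 0 of the 77 tested members reached the adjusted threshold of 0.05, against 0.0204% of all genes tested. The smallest adjusted p of a member by edgeR was 0.649. DESeq2 also called 0 members, against 0.604% of all genes, and left 3 members without an adjusted p. At an unadjusted edgeR p under 0.05 there were 3 members, Il34, Il17rb and Ccl5, all 3 with higher means in 9/13-HODEs livers, where 7.69% of all tested genes passed in either direction, 4.08% higher and 3.61% lower.

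**Figure D1:**
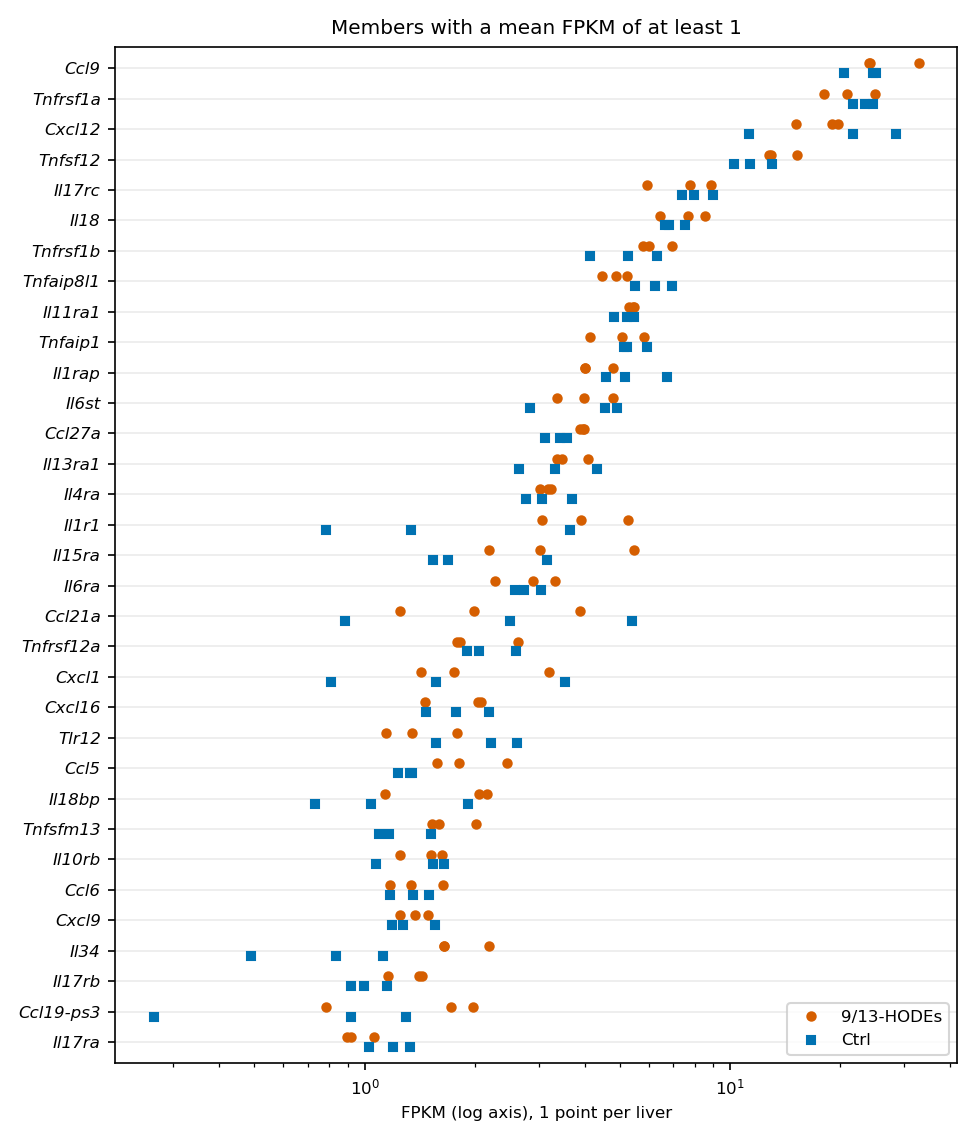
FPKM (log axis) of the 33 members with a mean of at least 1 FPKM, with 1 point per liver, 9/13-HODEs livers drawn above Ctrl livers for each gene. Ccl9, Tnfrsf1a, Cxcl12 and Tnfsf12 lie highest, and the points of both groups overlap for most genes, with Il1r1, Ccl21a, Cxcl1 and Ccl19-ps3 the most spread between livers of a group.

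The fitted fold change was positive for 55 of the 77 tested members and negative for 22, whereas 50.1% of all tested genes had a positive one. The median log2 fold change was 0.18 over the members and 0.00 over all tested genes. With limma-trend on log2(TPM + 0.1), where the FPKM values were rescaled to the same sum in each library, 43 members were positive and 34 negative, the median over all genes was -0.14 and that of the members 0.05, or 0.19 above all genes. Beyond 0.65 on the log2 scale, the limit that the methods of the study used for a changed gene, lay 14 members on the positive side and 1, Ccl21b, on the negative side, against 7.34% and 6.95% of all tested genes, whose SE was smaller in the median (0.25, against 0.37 for the members). In whole liver RNA, a different number of cells of a type and a different amount of RNA per cell cannot be told apart.

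The median depended on single livers. It lay between 0.14 and 0.30 when 1 library was left out, and was 0.30 without Ctrl replicate 3. The highest of the 6 values fell in 9/13-HODEs replicate 1 for 19 tested members, in replicate 2 for 19 and in replicate 3 for 12, against 5, 6 and 16 in Ctrl replicates 1, 2 and 3. Without 1 library in turn, 2 to 7 of the 77 members had an unadjusted edgeR p under 0.05, while 5.87% to 7.66% of all tested genes did. The count was 5, 2 and 6 without 9/13-HODEs replicates 1, 2 and 3, and 4, 7 and 5 without Ctrl replicates 1, 2 and 3. Il34 was among them each time.

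The 3 values of each group did not overlap for 8 of the 77 tested members, against 15.1% of all tested genes. In 7 of them, Il34, Il17rb, Ccl5, Il2rb, Il15, Tnfsfm13 and Ccl27a, the 9/13-HODEs livers were higher, against 5.28% of all tested genes, and in 1, Tnfaip8l1, they were lower, against 9.82%. With 3 livers against 3, the exact two-sided permutation test gave p = 0.1 for each of these genes, which is the smallest it can give.

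**Figure D2:**
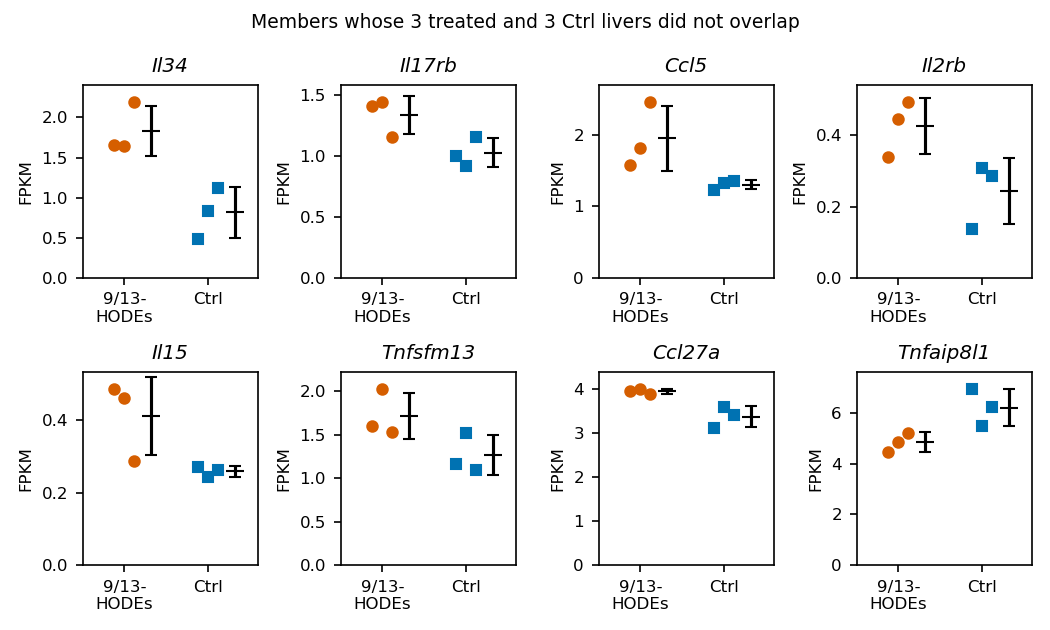
FPKM of the 8 members whose groups did not overlap, with 1 point per liver and the mean ± SD (n = 3) beside the points, 9/13-HODEs left and Ctrl right, and every axis starting at 0. Il34 shows the widest separation, at 1.65 to 2.19 FPKM in 9/13-HODEs livers and 0.489 to 1.12 FPKM in Ctrl livers, and Ccl27a and Il17rb differ by much less.

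Levels of immune cell markers stand beside these values, since leukocytes make many of the members. The summed FPKM of 5 pan-leukocyte markers was 10.3, 10.7 and 11.3 in 9/13-HODEs livers, against 7.38, 8.00 and 9.54 in Ctrl livers. That of 5 monocyte markers was 21.2, 21.6 and 20.6 in 9/13-HODEs livers, against 16.0, 16.5 and 18.8 in Ctrl livers. Of the tested markers, 3 of 4 pan-leukocyte and 2 of 2 monocyte ones had a positive fold change. Both sums were higher in each 9/13-HODEs liver than in any Ctrl liver, and their part in the results on the members was not tested. Cd52 was the largest part of the pan-leukocyte sum, at 4.94, 6.47 and 5.39 FPKM in 9/13-HODEs livers against 3.22, 3.39 and 4.29 FPKM in Ctrl livers. Coro1a did not overlap between groups either, but Laptm5, Arhgdib and Ptprc did. Lyz2 made up most of the monocyte sum, at 14.6, 16.9 and 15.7 FPKM against 12.5, 13.1 and 14.2 FPKM. Plac8 overlapped, and Ly6c2, Itgam and Chil3 were under the limit.

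Within these lists, Cd52 (5.60 ± 0.787 FPKM in 9/13-HODEs livers, 3.63 ± 0.574 FPKM in Ctrl livers, SD, log2 fold change 0.69), Lyz2 (0.31) and Plac8 (0.53) had unadjusted edgeR p under 0.05. Ptprc, which defines leukocytes, was under the FPKM limit and not tested. It lay between 0.0273 and 0.0540 FPKM in 9/13-HODEs livers and between 0.0314 and 0.0603 FPKM in Ctrl livers. Itgam, also under the limit, did not overlap between groups, with 17, 22 and 41 counts in 9/13-HODEs livers against 4, 0 and 11 counts in Ctrl livers. Ly6c2 and Chil3 overlapped. The 10 Kupffer cell markers summed to 83.4, 108.4 and 103.4 FPKM in 9/13-HODEs livers, against 74.1, 89.6 and 93.1 FPKM in Ctrl livers, which overlap. Of the 10, 8 had a positive and 2 a negative fold change, and C1qb was the only one with an unadjusted edgeR p under 0.05 (log2 fold change 0.44). C1qb and Timd4 (0.46, SE 0.23) were higher in every 9/13-HODEs liver than in any Ctrl liver. Adgre1, which encodes F4/80, was lower in every 9/13-HODEs liver, at 0.275, 0.339 and 0.261 FPKM against 0.486, 0.448 and 0.394 FPKM in Ctrl livers (-0.54, SE 0.24). The groups overlapped for the rest of the Kupffer cell markers. T cell markers summed to between 1.71 and 2.14 FPKM in 9/13-HODEs livers and between 0.959 and 1.89 FPKM in Ctrl livers. NK cell markers lay between 0.918 and 1.59 FPKM in 9/13-HODEs livers and between 0.308 and 1.55 FPKM in Ctrl livers, with Ncr1 at 0 in all libraries. All 5 tested T cell markers and all 3 tested NK cell markers had a positive fold change (medians 0.17 and 0.48). None of them had an unadjusted edgeR p under 0.05.

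Neutrophil markers stood apart in 1 liver, with a sum of 11.9 FPKM in 9/13-HODEs replicate 2 against 2.95 and 3.63 FPKM in the other 9/13-HODEs livers and 0.919 to 3.57 FPKM in Ctrl livers. The neutrophil genes Ly6g, Camp and Ngp had no count in any library. Hepatocyte markers were abundant in every library, at a sum of 54708 to 64718 FPKM in 9/13-HODEs livers and 58217 to 63581 FPKM in Ctrl livers. Among the other marker lists, Lyve1 of sinusoidal endothelium was higher (log2 fold change 1.06) and Cps1 of hepatocytes and Alas2 of red blood cells lower (-0.28 and -0.38) at an unadjusted edgeR p under 0.05, where the other 5 hepatocyte markers had positive fold changes. The adipocyte marker Retn, with no count in any Ctrl liver, also had an unadjusted edgeR p under 0.05, and it was called by DESeq2 (adjusted p = 0.0131). It had 61, 8 and 10 counts in 9/13-HODEs replicates 1, 2 and 3, and passed the FPKM limit only through these livers. Adipoq, Plin1 and Lep had counts in 9/13-HODEs replicate 1 alone, so the Retn difference leans on that liver. No marker passed the adjusted threshold by edgeR.

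**Figure D3:**
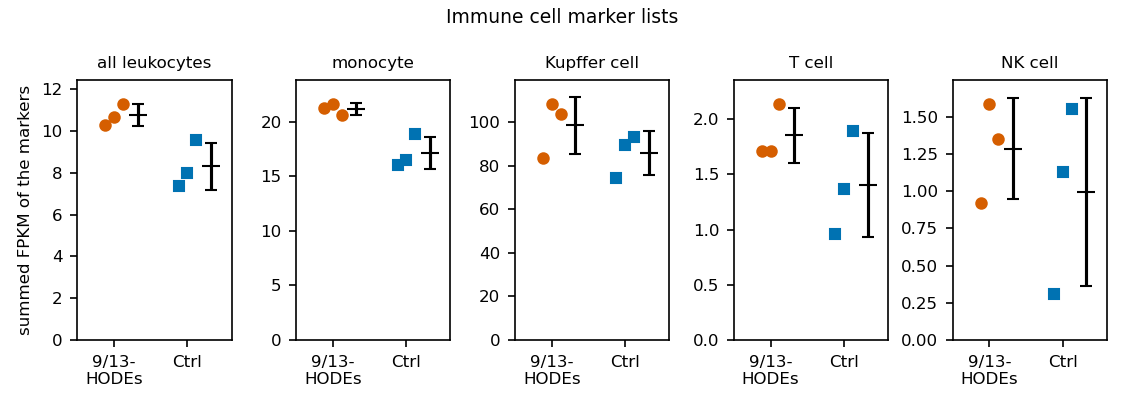
Summed FPKM of the marker genes of 5 immune cell classes, with 1 point per liver and the mean ± SD (n = 3) beside them, 9/13-HODEs left and Ctrl right. The 9/13-HODEs livers lie above every Ctrl liver for the pan-leukocyte and monocyte sums, of which Cd52 and Lyz2 are the largest parts. The groups overlap for Kupffer cell, T cell and NK cell markers.

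**Figure D4:**
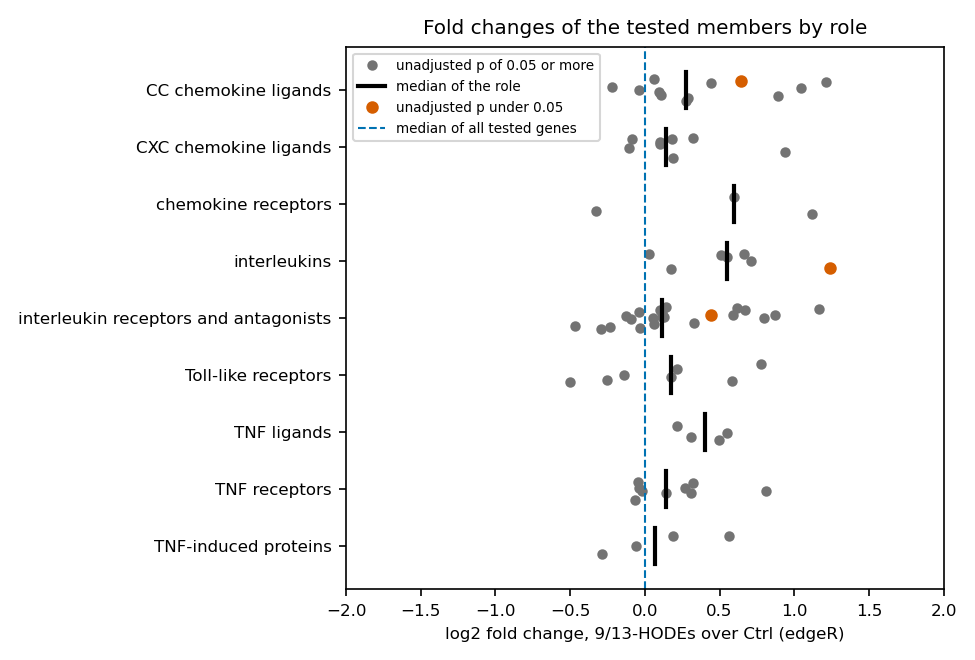
Log2 fold change (9/13-HODEs over Ctrl, edgeR) of the tested members by role, with 1 point per gene, a black bar at the median of the role and a dashed line at the median of all tested genes. Ccl21b, at -6.90 with all of its counts in 1 Ctrl liver, lies outside the axis and is left out of the plot. All 9 medians lie right of the dashed line, and interleukins and TNF ligands are the 2 roles with every point right of 0. Tnfsf12, Tnfsfm13 and Tnfsf13os, all of 1 locus, are among the TNF ligand points, and Tnfsf13os is an opposite-strand transcript. The chemokine receptor median is that of Ccr7, which passed the FPKM limit only through its 9/13-HODEs livers.

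Among the CC chemokine ligands, 22 had a count and 13 were tested, 10 with a positive and 3 with a negative fold change and a median of 0.27. The pseudogenes Ccl19-ps1 and Ccl19-ps3 are among the positive ones. Ccl9, a chemokine made by macrophages and related myeloid cells, was the member of highest level in the whole group. It had 32.8, 24.2 and 24.0 FPKM in 9/13-HODEs livers, against 24.5, 20.5 and 25.1 FPKM in Ctrl livers (log2 fold change 0.27, SE 0.15). Only 9/13-HODEs replicate 1 stood above the Ctrl livers, and without it the log2 fold change of Ccl9 was 0.12.

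Ccl5 (chromosome 11, 83525778 to 83530518, minus strand), which draws T cells and monocytes, had 1.58, 1.82 and 2.46 FPKM in 9/13-HODEs livers, against 1.23, 1.33 and 1.35 FPKM in Ctrl livers. Its log2 fold change was 0.65 (SE 0.27), with an unadjusted p of 0.0494 and an adjusted p of 0.649 by edgeR. Without 9/13-HODEs replicate 3, the highest liver, the log2 fold change of Ccl5 was 0.39.

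Ccl27a, the mouse gene of a skin chemokine, had 3.96, 3.996 and 3.89 FPKM in 9/13-HODEs livers, against 3.13, 3.58 and 3.42 FPKM in Ctrl livers (log2 fold change 0.29, SE 0.13, edgeR adjusted p = 0.666). The 9/13-HODEs livers were nearly alike and all above the Ctrl livers. Ccl27a overlaps the end of Il11ra1 on the opposite strand and has a close copy in Ccl27b, and how the counting divided such reads is not given in the sources used here.

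Ccl21a, a lymphoid chemokine that acts through Ccr7, varied more within groups than between them. It had 1.25, 3.89 and 2.00 FPKM in 9/13-HODEs livers, against 0.882, 2.50 and 5.39 FPKM in Ctrl livers (log2 fold change -0.22, SE 0.66). Its near-identical copy Ccl21b had no count in any 9/13-HODEs liver and 42 counts in Ctrl replicate 2 alone, which against a floor of 3 counts over the 9/13-HODEs livers is at least 13.8-fold lower but rests on that single liver. Reads of Ccl21a, Ccl21b and Ccl21d cannot be assigned with certainty.

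Ccl19, the other ligand of Ccr7, had 0.353, 0.451 and 0.659 FPKM in 9/13-HODEs livers, against 0.106, 0.0631 and 0.502 FPKM in Ctrl livers, with a log2 fold change of 1.21 (SE 0.76), and its pseudogene Ccl19-ps3 had one of 0.89 (SE 0.64). Both sets of values overlapped between groups, and the pair share sequence. Ccl6 averaged 1.38 FPKM in 9/13-HODEs livers and 1.35 FPKM in Ctrl livers. Ccl24, an eosinophil chemokine, averaged 0.887 FPKM in 9/13-HODEs livers and 0.675 FPKM in Ctrl livers (log2 fold change 0.45, SE 0.30).

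Of the 10 CXC chemokine ligands, 8 were tested, 6 with a positive and 2 with a negative fold change and a median of 0.14. Cxcl12, which holds Cxcr4-bearing cells in their niche, had 15.2, 19.0 and 19.7 FPKM in 9/13-HODEs livers, against 21.7, 11.3 and 28.5 FPKM in Ctrl livers (log2 fold change -0.10, SE 0.30). The Ctrl livers spanned the whole range of the 9/13-HODEs livers. Cxcl1, a neutrophil chemokine that liver cells make under inflammatory signals, had 1.43, 3.20 and 1.75 FPKM in 9/13-HODEs livers, against 0.807, 1.57 and 3.54 FPKM in Ctrl livers (log2 fold change 0.18, SE 0.54). Its highest value was that of Ctrl replicate 3, which also had the highest Ccl21a and Cxcl12.

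The interferon-induced ligands of Cxcr3 had fold changes smaller than their SE. Cxcl9 averaged 1.37 ± 0.12 FPKM in 9/13-HODEs livers and 1.34 ± 0.19 FPKM in Ctrl livers (log2 fold change 0.10, SE 0.21). Cxcl10 averaged 0.530 ± 0.205 FPKM in 9/13-HODEs livers and 0.589 ± 0.353 FPKM in Ctrl livers (-0.09, SE 0.48), and Cxcl11 had a log2 fold change of 0.32 (SE 0.44). Cxcl16, the transmembrane ligand of Cxcr6, had 2.04, 2.09 and 1.46 FPKM in 9/13-HODEs livers, against 1.47, 1.78 and 2.19 FPKM in Ctrl livers. Cxcl13, a B cell chemokine, had a log2 fold change of 0.94 with an SE of 0.77, and no liver exceeded 0.635 FPKM.

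NF-kB drives many chemokine genes in inflamed tissue, so the 250 bases before the RefSeq start of each gene (GRCm38.p6) were searched on both strands for GGGNNTTTCC, a form of the NF-kB motif. Of the 138 members, 104 had a promoter in the RefSeq table used and 9 of these, or 8.65%, held the letters, against 1.65% of all 27025 genes in that table: Ccl9, Cxcl1, Cxcl2, Il16, Il17rc, Il1rn, Tlr3, Tnfaip3 and Tnfrsf25. GAAANNGAAA, a form of the interferon response motif, stood in 8.65% of the members and 3.46% of all genes. The promoters with the NF-kB letters of the 3 members with a mean of at least 1 FPKM are shown 5′ to 3′ up to the base before the start, with the match in capitals. They are a description of sequence and do not show binding.
Ccl9: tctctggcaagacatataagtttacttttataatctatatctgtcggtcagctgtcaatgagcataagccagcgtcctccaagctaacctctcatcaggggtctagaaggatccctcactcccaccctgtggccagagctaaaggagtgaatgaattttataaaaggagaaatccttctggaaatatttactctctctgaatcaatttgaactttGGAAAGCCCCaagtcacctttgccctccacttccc
Cxcl1: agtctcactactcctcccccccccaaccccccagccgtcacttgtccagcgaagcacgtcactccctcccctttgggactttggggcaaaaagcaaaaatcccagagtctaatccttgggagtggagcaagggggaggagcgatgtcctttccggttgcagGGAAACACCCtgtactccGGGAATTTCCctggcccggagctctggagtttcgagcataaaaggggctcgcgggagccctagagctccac
Il17rc: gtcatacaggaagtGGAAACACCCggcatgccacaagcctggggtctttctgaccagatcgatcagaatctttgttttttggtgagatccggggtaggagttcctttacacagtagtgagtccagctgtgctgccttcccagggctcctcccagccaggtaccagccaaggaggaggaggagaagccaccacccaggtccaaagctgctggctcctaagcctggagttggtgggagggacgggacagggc
The Ccl9 window is chr11:83578637-83578886 on the minus strand, with the match beginning 35 bases before the start. The Cxcl1 window is chr5:90890995-90891244 on the plus strand and holds 2 matches, of which the farther begins 89 bases before the start. The Il17rc window is chr6:113471205-113471454 on the plus strand, with its match 236 bases before the start. None of these 3 genes had an unadjusted edgeR p under 0.05, and their log2 fold changes were 0.27, 0.18 and -0.04.

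Chemokine receptors were scarce, with 12 members that had a count and 3 that were tested. Cxcr4, the receptor of Cxcl12, had 0.265, 0.371 and 0.399 FPKM in 9/13-HODEs livers, against 0.126, 0.311 and 0.0526 FPKM in Ctrl livers, from 38 to 63 counts in 9/13-HODEs livers and 8 to 44 counts in Ctrl livers (log2 fold change 1.12, SE 0.66). Ctrl replicate 2 overlapped the 9/13-HODEs livers, and the log2 fold change of Cxcr4 was 1.999 without that liver and 0.69 without Ctrl replicate 3. Cxcr3, the T and NK cell receptor of Cxcl9 and Cxcl10, had 0.1003, 0.0258 and 0.373 FPKM in 9/13-HODEs livers, against 0.151, 0.167 and 0.368 FPKM in Ctrl livers (-0.33, SE 0.92). Ccr7 had 0.0606, 0.0887 and 0.260 FPKM in 9/13-HODEs livers, against 0.0788, 0.0914 and 0.111 FPKM in Ctrl livers (0.59, SE 0.68), and its log2 fold change was -0.32 without 9/13-HODEs replicate 3. It passed the FPKM limit only through its 9/13-HODEs livers, and its fold change is the median of the 3 tested receptors.

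Of the interleukins, 14 had a count and 7 were tested, all 7 with a positive fold change and a median of 0.55. That count was 5 or 6 of 7 without any 1 library other than 9/13-HODEs replicate 3, and 6 of 7 with each limma-trend setting. Il34 (chromosome 8, 110741829 to 110805903, minus strand) encodes a ligand of Csf1r, the receptor through which macrophages survive and mature. It had 1.65, 1.65 and 2.19 FPKM in 9/13-HODEs livers, against 0.489, 0.834 and 1.12 FPKM in Ctrl livers, from 255, 272 and 376 counts in 9/13-HODEs livers and 78, 129 and 182 counts in Ctrl livers. The mean was 2.25 times as high in 9/13-HODEs livers, and every 9/13-HODEs liver lay above every Ctrl liver.

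The log2 fold change of Il34 was 1.24 (SE 0.34), with an unadjusted p of 0.00888 and an adjusted p of 0.649 by edgeR, and an adjusted p of 0.0929 by DESeq2. Its unadjusted p stayed under 0.05 in each of the 15 other settings of processing and omitted libraries, and the fold change lay between 0.982 and 1.499 when 1 library was left out. Csf1r, its receptor, had 1.91, 3.70 and 2.41 FPKM in 9/13-HODEs livers, against 2.04, 2.06 and 2.66 FPKM in Ctrl livers (log2 fold change 0.31, SE 0.24), with overlapping groups.

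Il18, an inflammasome-processed cytokine, was the interleukin of highest level, at 6.45, 8.52 and 7.69 FPKM in 9/13-HODEs livers against 7.52, 6.63 and 6.82 FPKM in Ctrl livers (log2 fold change 0.18, SE 0.16). The groups overlapped. Il15, a survival factor of NK and memory T cells, had 0.485, 0.461 and 0.288 FPKM in 9/13-HODEs livers, against 0.271, 0.242 and 0.263 FPKM in Ctrl livers (0.71, SE 0.30, edgeR adjusted p = 0.652). The groups did not overlap, but 9/13-HODEs replicate 3 lay close to the Ctrl livers, and no library had more than 89 counts of Il15.

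Il1a, an alarmin of the interleukin 1 family, had 0.838, 0.667 and 0.477 FPKM in 9/13-HODEs livers, against 0.451, 0.351 and 0.499 FPKM in Ctrl livers (log2 fold change 0.66, SE 0.29). Il1b, the inflammasome product that marks activated macrophages, had 11, 48 and 23 counts in 9/13-HODEs livers, against 0, 21 and 35 counts in Ctrl livers (0.55, SE 1.18). Il16 had a log2 fold change of 0.51 (SE 0.40) and the alarmin Il33 one of 0.03 (SE 0.49). None of these 4 had an unadjusted p under 0.05.

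Of the 34 interleukin receptors, co-receptors and antagonists with a count, 22 were tested, 15 with a positive and 7 with a negative fold change and a median of 0.11. Il17rb (chromosome 14, 29996135 to 30008896, minus strand), a chain of the receptor for the type 2 cytokine interleukin 25, had 1.41, 1.44 and 1.16 FPKM in 9/13-HODEs livers, against 0.996, 0.919 and 1.15 FPKM in Ctrl livers. The groups did not overlap, but the lowest 9/13-HODEs liver and the highest Ctrl liver were nearly equal. Its log2 fold change was 0.44 (SE 0.16), with an unadjusted p of 0.0300 and an adjusted p of 0.649 by edgeR. Il17rb overlaps Actr8 on the opposite strand.

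Il2rb, the chain that the receptors for interleukins 2 and 15 share on NK and T cells, had 0.340, 0.445 and 0.494 FPKM in 9/13-HODEs livers, against 0.137, 0.309 and 0.286 FPKM in Ctrl livers (log2 fold change 0.87, SE 0.37, edgeR adjusted p = 0.649). The groups did not overlap. Il15ra, which presents interleukin 15 to those cells, had 3.03, 5.45 and 2.18 FPKM in 9/13-HODEs livers, against 1.54, 1.69 and 3.16 FPKM in Ctrl livers (0.79, SE 0.37), and Il2rg, the common gamma chain, had 0.745, 0.426 and 0.593 FPKM in 9/13-HODEs livers, against 0.146, 0.537 and 0.476 FPKM in Ctrl livers (0.67, SE 0.51). Il15ra and Il2rg overlapped between groups. The values of the NK and T cell markers given above stand beside these 3 receptor chains, and their part in these values was not tested.

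Il1r1, the signalling receptor of interleukin 1, differed widely between Ctrl livers. It had 3.92, 5.25 and 3.06 FPKM in 9/13-HODEs livers, against 0.784, 1.34 and 3.64 FPKM in Ctrl livers (log2 fold change 1.16, SE 0.52, adjusted p = 0.666 by edgeR and 0.373 by DESeq2). Ctrl replicate 3 was within the range of the 9/13-HODEs livers. Its co-receptor Il1rap had 4.01, 4.80 and 4.004 FPKM in 9/13-HODEs livers, against 4.58, 5.15 and 6.73 FPKM in Ctrl livers (-0.29, SE 0.14, or -0.16 without Ctrl replicate 3), and the antagonist Il1rn averaged 0.365 FPKM in 9/13-HODEs livers and 0.357 FPKM in Ctrl livers.

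Il17rc and Il11ra1, the receptor chains of highest level, had fold changes below or close to their SE. Il17rc, a chain of the interleukin 17 receptor, had 5.94, 8.89 and 7.77 FPKM in 9/13-HODEs livers, against 8.97, 7.38 and 7.96 FPKM in Ctrl livers (log2 fold change -0.04, SE 0.17), and Il17ra one of -0.23 (SE 0.14). Il11ra1 had 5.30, 5.44 and 5.45 FPKM in 9/13-HODEs livers, against 5.47, 5.22 and 4.83 FPKM in Ctrl livers (0.13, SE 0.11), with reads that may be shared with Il11ra2 and with Galt, which it overlaps on the same strand. The chains through which hepatocytes sense interleukins 4, 6 and 13 had log2 fold changes of 0.06 (Il4ra, SE 0.11), 0.10 (Il6ra, SE 0.17), 0.05 (Il6st, SE 0.24) and 0.14 (Il13ra1, SE 0.22). Il18bp, which neutralises interleukin 18, averaged 1.79 ± 0.56 FPKM in 9/13-HODEs livers and 1.23 ± 0.61 FPKM in Ctrl livers (0.59, SE 0.39).

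Of the 11 Toll-like receptors with a count, 7 were tested, 4 with a positive and 3 with a negative fold change and a median of 0.18. Tlr12, a mouse receptor for a protein of Toxoplasma, was the highest, at 1.79, 1.15 and 1.35 FPKM in 9/13-HODEs livers against 2.22, 1.57 and 2.61 FPKM in Ctrl livers. Its log2 fold change of -0.50 (SE 0.25) was the most negative among members of at least 1 FPKM, and the groups overlapped through 9/13-HODEs replicate 1 and Ctrl replicate 2. Tlr5, the flagellin receptor, had 0.288, 0.413 and 0.511 FPKM in 9/13-HODEs livers, against 0.372, 0.492 and 0.545 FPKM in Ctrl livers (-0.14, SE 0.30).

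Tlr2, which senses bacterial lipoproteins, had 0.368, 0.172 and 0.204 FPKM in 9/13-HODEs livers, against 0.140, 0.206 and 0.329 FPKM in Ctrl livers (log2 fold change 0.21, SE 0.45). Its partner Tlr1 had a log2 fold change of 0.18 (SE 0.37), and the endosomal receptors for RNA had 0.78 (Tlr7, SE 0.47), 0.58 (Tlr13, SE 0.43) and -0.26 (Tlr3, SE 0.31). Tlr4, the receptor of bacterial endotoxin, stayed under the limit with 8, 41 and 34 counts in 9/13-HODEs livers, against 7, 0 and 16 counts in Ctrl livers. Tlr7 and Tlr13 passed the limit only through their 9/13-HODEs livers.

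Tnf, the founding cytokine of its family, had 4, 0 and 0 counts in 9/13-HODEs livers and 0, 0 and 7 counts in Ctrl livers, too few to compare. Of the 10 TNF ligands with a count, 4 were tested, all with a positive fold change and a median of 0.40, or 3 of 4 without 9/13-HODEs replicate 1 or Ctrl replicate 1. Of the 4, Tnfsf12, Tnfsfm13 and Tnfsf13os are models of 1 locus, and Tnfsf13os is an opposite-strand transcript rather than a ligand. Tnfsf12, the cytokine TWEAK, had 13.0, 12.8 and 15.2 FPKM in 9/13-HODEs livers, against 13.0, 11.4 and 10.3 FPKM in Ctrl livers (log2 fold change 0.31, SE 0.16). The groups overlapped through Ctrl replicate 1, and the log2 fold change of Tnfsf12 was 0.18 without 9/13-HODEs replicate 3. Its receptor Tnfrsf12a averaged 2.08 ± 0.48 FPKM in 9/13-HODEs livers and 2.19 ± 0.36 FPKM in Ctrl livers (-0.02, SE 0.23).

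Tnfsfm13, a read-through model that spans Tnfsf12 and Tnfsf13 on the same strand, had 1.597, 2.02 and 1.53 FPKM in 9/13-HODEs livers, against 1.16, 1.52 and 1.09 FPKM in Ctrl livers (log2 fold change 0.50, SE 0.23, edgeR adjusted p = 0.666). The groups did not overlap, by the margin between 1.53 FPKM in 9/13-HODEs replicate 3 and 1.52 FPKM in Ctrl replicate 2. Tnfsf13os, on the opposite strand of the same locus, had 0.610, 0.858 and 1.31 FPKM in 9/13-HODEs livers, against 0.254, 0.836 and 0.917 FPKM in Ctrl livers (0.55, SE 0.55, or 0.16 without either 9/13-HODEs replicate 3 or Ctrl replicate 1). The values of these 3 models of 1 locus are not independent. Tnfsf10, the death ligand TRAIL, had a log2 fold change of 0.21 (SE 0.34).

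Of the 18 TNF receptors with a count, 9 were tested, 5 with a positive and 4 with a negative fold change and a median of 0.14. Tnfrsf1a, the death domain receptor of Tnf, had 24.9, 20.9 and 18.1 FPKM in 9/13-HODEs livers, against 23.4, 21.8 and 24.7 FPKM in Ctrl livers (log2 fold change -0.06, SE 0.12). The 9/13-HODEs livers spread over a wider range than the Ctrl livers and overlapped them. Tnfrsf1b, the second Tnf receptor, had 6.02, 6.96 and 5.76 FPKM in 9/13-HODEs livers, against 6.32, 4.14 and 5.26 FPKM in Ctrl livers (0.32, SE 0.16), with overlapping groups.

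Of the 7 TNF-induced proteins, 4 were tested, 2 in each direction. Tnfaip8l1, a member of the TIPE family of lipid-binding proteins, was the only one of the 8 members without overlap that was lower in 9/13-HODEs livers, at 4.46, 4.88 and 5.23 FPKM against 6.94, 5.49 and 6.23 FPKM in Ctrl livers (log2 fold change -0.29, SE 0.13, edgeR adjusted p = 0.667). Tnfaip8l2, the family member that restrains immune receptor signalling, had 1.34, 1.03 and 1.12 FPKM in 9/13-HODEs livers, against 0.431, 0.991 and 1.04 FPKM in Ctrl livers (0.57, SE 0.38). Its groups overlapped, with Ctrl replicate 1 apart from the rest, and without that liver the log2 fold change of Tnfaip8l2 was 0.27. Tnfaip1 had 5.07, 5.83 and 4.13 FPKM in 9/13-HODEs livers, against 5.13, 5.91 and 5.24 FPKM in Ctrl livers (-0.06, SE 0.14). Tnfaip3, the NF-kB feedback inhibitor A20, was under the limit with 34, 50 and 46 counts in 9/13-HODEs livers, against 60, 22 and 31 counts in Ctrl livers.

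The level of a member set how closely it could be measured. For the 33 members of at least 1 FPKM the median SE of the log2 fold change was 0.20, and 29 of their fold changes were smaller than 0.65 in size, with 23 positive and 10 negative. Over all 77 tested members the median SE was 0.37. Of the tested members, 6 had a Ctrl mean (Ccl8, Tlr13, Tnfrsf23, Ccr7, Tnfrsf18 and Tlr7) and 1 had a 9/13-HODEs mean (Ccl21b) under the 0.1 FPKM limit, and passed it through the other group. Another gene overlaps 4 of the tested members on the same strand, Il1r1 (with Gm38070) among them, and 14 on the opposite strand, and their reads may be shared. On either side of the limit lay Tnfrsf26 at 0.0972 and Tnfrsf23 at 0.1002 FPKM.

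The 61 members under the limit summed to 1830 counts in 9/13-HODEs livers and 1630 counts in Ctrl livers. Of these, 44 had counts in both groups, 13 in 9/13-HODEs livers only and 4 in Ctrl livers only. The same split over all genes under the limit was not counted, so it is not read as a result about the members. Ccl3, a macrophage chemokine, with 7, 4 and 14 counts, and Cxcr2, the neutrophil receptor of Cxcl1, with 4, 19 and 19 counts, were the 2 members that had counts in all 3 9/13-HODEs livers and 0 counts in all 3 Ctrl livers. These were singled out after their values were seen, and how many other genes under the limit show the same pattern was not counted. With counts clustered at 4, how many molecules these values stand for is not known. The neutrophil marker sum was highest in 9/13-HODEs replicate 2, at 11.9 FPKM. With the same 19 counts of Cxcr2, 9/13-HODEs replicate 3 had a sum of 3.63 FPKM, and Ctrl replicate 3, with 0 counts, had 3.57 FPKM. The part of neutrophils in the Cxcr2 counts was not tested.

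The genes that carry the signals of these receptors had median fold changes between -0.08 and 0.06, and most TNF death domain and adaptor genes were negative. Of 33 genes of Toll-like receptor and NF-kB signalling, 32 were tested, 18 with a positive and 14 with a negative fold change and a median of 0.06. Nfkbia, whose transcription follows NF-kB activity, had 13.4, 20.1 and 14.7 FPKM in 9/13-HODEs livers, against 19.9, 15.7 and 16.0 FPKM in Ctrl livers (log2 fold change -0.04, SE 0.17). Relb, an NF-kB subunit, was the only one of these genes with an unadjusted edgeR p under 0.05, at 0.460, 0.382 and 0.253 FPKM in 9/13-HODEs livers against 0.246, 0.162 and 0.267 FPKM in Ctrl livers (0.75, SE 0.31, adjusted p = 0.649).

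Of 16 JAK-STAT genes, 15 were tested, 7 positive and 8 negative with a median of -0.01, and none had an unadjusted edgeR p under 0.05. Of 18 TNF death domain and adaptor genes, 11 were tested, 2 positive and 9 negative with a median of -0.08, and again none passed. Of 12 other chemokine genes, 9 were tested, 7 positive and 2 negative with a median of 0.18. Among them Ackr1, a decoy receptor on venous endothelium and red blood cells, had 0.588, 0.895 and 0.335 FPKM in 9/13-HODEs livers, against 0.358, 0.186 and 0.241 FPKM in Ctrl livers (log2 fold change 1.24, SE 0.45), with overlapping groups. No gene of the 4 lists passed an adjusted p of 0.05 by edgeR. The tested genes of these lists whose groups did not overlap were Tirap, Fas and Ltbr. All were lower in 9/13-HODEs livers, as were 9.82% of all tested genes, while 5.28% were higher. Their log2 fold changes by edgeR were -0.15 (SE 0.15), -0.31 (SE 0.16) and -0.07 (SE 0.09). Overlap was judged on FPKM, where the median log2 fold change over all tested genes was -0.059 by limma-trend on log2(FPKM + 0.1).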

How the data were processed

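Liver RNA of 3 mice treated with 9/13-HODEs and 3 Ctrl mice was sequenced from strand-marked poly(A) libraries. For every gene model in every library the authors deposited a whole-number count and a value in FPKM. Where a count is 0, the deposited FPKM is a fixed 0.0001, read here as 0. The submitters' processing notes list HISAT2 2.0.4 and StringTie 1.3.4d, beside cutadapt 1.9 and UMI-tools, with no role for any of them. Whether counting used strand or unique molecules is not given in the sources used here. Coordinates are those of the table, whose build is not named, and 136 of the 138 starts and 119 ends equal GENCODE M21 (GRCm38).

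Counts were fitted with edgeR 4.0.16 (R 4.3.3, TMM, quasi-likelihood, Benjamini-Hochberg over 14741 genes with a mean of at least 0.1 FPKM). The methods of the study give a log2 fold limit of 0.65 and no test for counts, so the test was chosen for the unit. Each SE is the log2 fold change divided by the square root of its F value. Alternatives were DESeq2 1.42.0, its size factors, no filter, a limit of 1 FPKM, limma-trend (limma 3.58.1) on FPKM or TPM, each omitted library and a replicate block. Counts divided by 4 were added after the pile-up at 4 was seen. The members, gene lists and tests were chosen with earlier results of these data known.

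Named members had an unadjusted p under 0.05, groups without overlap, or 1 of the 3 highest means in their role, and others are named for their known function beside these, after their values were seen. Of pathway and marker lists (hepatocyte, leukocyte, Kupffer cell, monocyte, neutrophil, T cell, NK cell, B cell, dendritic cell, endothelial, stellate, cholangiocyte, red blood cell and adipocyte), those with an unadjusted p under 0.05 are named. Other list genes are named for their function, level, part in a marker sum or groups without overlap, after their values were seen.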

Additional observations from a re-analysis of the deposited data

How the results depend on the processing

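No member passed an adjusted p of 0.05 in any setting run: DESeq2, its size factors, no filter, a limit of 1 FPKM, limma-trend on FPKM or TPM, each omitted library, a replicate block and counts divided by 4. At an unadjusted p under 0.05 there were 5 members by DESeq2, where 7.84% of all genes fitted passed. Without a filter edgeR gave 7 of 138 members, where 5.5% of all genes passed. With 1 library left out it gave 2 to 7 members, where 5.87% to 7.66% passed. The edgeR fit of the results above gave 3, where 7.69% passed. The median log2 fold change over the members was 0.042 by limma-trend on log2(FPKM + 1), 0.047 on log2(TPM + 0.1) and 0.14 to 0.30 with 1 library left out. Of the roles, 9 had a positive median, and 7 to 9 with 1 library left out. At a limit of 1 FPKM, 5 did, and no chemokine receptor was left. TNF receptors (-0.013), TNF-induced proteins (-0.17) and Toll-like receptors (-0.50, from 1 member) had a negative median there.

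Some named members changed sign, Ccr7 (0.59) and Cxcr3 (-0.33) among them. Cxcl16 was at -0.043 and Il11ra1 at -0.020 by limma-trend on log2(TPM + 0.1). With 1 library left out, log2 fold changes lay between -0.71 and 0.50 for Ccl21a, -0.32 and 0.94 for Ccr7, -0.19 and 0.85 for Cxcl1, -0.38 and 0.17 for Cxcl12, -0.022 and 0.22 for Cxcl16, -1.78 and 0.19 for Cxcr3, -0.13 and 0.11 for Il17rc, -0.17 and 0.54 for Tlr2, -0.40 and 0.058 for Tlr5, -0.14 and 0.040 for Tnfaip1, -0.18 and 0.16 for Tnfrsf12a, and -0.18 and 0.0036 for Tnfrsf1a. The causes were not tested.

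What the replicate numbers stand for is not given in the sources used here, and same-numbered livers did not deviate together (correlations of 0.0071, -0.0277 and -0.0377 across genes). With a replicate block, 0 members passed the adjusted threshold and the median was 0.19. An unadjusted p under 0.05 was reached by 4 members and by 6.05% of all tested genes in that fit. Retn passed an adjusted p of 0.05 by DESeq2 (0.0131) and not by edgeR. The 61 members under the 0.1 FPKM limit were tested only in the setting without a filter.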

Other observations

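The marker lists not described above gave these summed levels. B and plasma cell markers had 3.61, 5.34 and 8.16 FPKM in 9/13-HODEs livers, against 4.60, 2.90 and 3.88 FPKM in Ctrl livers, and dendritic cell markers 0.480, 1.005 and 0.323 FPKM in 9/13-HODEs livers, against 0.254, 0.556 and 0.567 FPKM in Ctrl livers. Sinusoidal endothelial markers lay between 26.5 and 38.4 FPKM in 9/13-HODEs livers and between 27.0 and 33.4 FPKM in Ctrl livers, stellate cell markers between 34.7 and 44.7 FPKM in 9/13-HODEs livers and between 35.5 and 40.9 FPKM in Ctrl livers, and cholangiocyte markers between 13.4 and 17.2 FPKM in 9/13-HODEs livers and between 12.8 and 19.3 FPKM in Ctrl livers. Red blood cell markers lay between 121.8 and 174.0 FPKM in 9/13-HODEs livers and between 113.7 and 249.0 FPKM in Ctrl livers, with all 5 genes of negative fold change. Adipocyte markers summed to 1.19, 0.0546 and 0.0687 FPKM in 9/13-HODEs livers and had no count in any Ctrl liver. Of the 4, Adipoq (63 counts), Plin1 (38) and Lep (4) had counts in 9/13-HODEs replicate 1 alone, and Retn had 61, 8 and 10 counts in 9/13-HODEs livers, so that replicate 1 stood apart.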
